A study of Mus musculus with 5 samples.

Results

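The Ube genes are the mouse genes named for ubiquitin-conjugating enzymes. All protein-coding genes of the RefSeq table for GRCm38.p6 (the assembly of mm10) whose symbol starts with Ube were taken, which gave 42 of 21775 genes. The binding of ZFP541, a zinc finger protein made during spermatogenesis, was measured by ChIP-seq: an antibody pulls down chromatin fixed with formaldehyde, and the DNA bound to it is read. The cells came from the testes of adult C57BL/6 mice and were spermatocytes in the pachytene and diplotene stages, separated from other germ cells by STA-PUT (sedimentation by size). Wild-type cells gave 2 ChIP libraries with a rabbit antibody against amino acids 1 to 300 of ZFP541, and Zfp541-/- cells gave 1 ChIP library with the same antibody. The 2 wild-type input libraries were not analysed here. The sources used here do not give the design of the knockout allele, or whether cells of several mice were pooled. Peak lists hold no marker levels, so the purity of the cells could not be checked.

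Ubiquitin is attached to proteins in a relay. An E1 enzyme activates it, an E2 enzyme carries it on a cysteine, and an E3 ligase brings the loaded E2 to the target; SUMO, NEDD8 and ISG15 use relays of the same kind. In spermatocytes, ubiquitin and SUMO mark chromatin at DNA breaks, on the silenced sex chromosomes and along the chromosome axes, and loss of the E2 genes Ube2b or Ube2j1 leaves male mice infertile. The symbol rule gave 36 E2 genes and 6 genes of ligases (Ube3a, Ube3b, Ube3c, Ube4a, Ube4b and Ube2cbp, which the table also lists as Ube3d). It gave no E1 gene, because these carry other symbols, many of them starting with Uba. The E1 genes are described with the other conjugation genes below.

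A peak in both replicates, called a shared peak here, means a replicate 1 peak and a replicate 2 peak that overlap by at least 1 bp, both reach the gene or 1 kb beyond its ends, and have no knockout peak. Shared peaks were found at 21 of the 42 Ube genes (50%), against 23.8% of all protein-coding genes. A further 5 Ube genes (11.9%) had a peak in 1 replicate only, and peaks without a shared one were at 11.7% of all coding genes. No wild-type peak was found at 16 Ube genes (38.1%), against 64.6% of all coding genes. Replicate 1 had peaks at 22 Ube genes (27.8% of all coding genes had one) and replicate 2 at 25 (32.6%). The knockout list, with 256 peaks in all, had none at any Ube gene (0.22% of all coding genes had one). Its lowest −log10 p was 4.47, against 2.71 and 2.54 in wild-type replicates 1 and 2. Knockout peaks as weak as the weakest wild-type ones are thus absent from the list, so the lists are not alike in this. The gene family was chosen by its peaks in these 3 lists, so the counts are a description and no test was made. The Ube genes had a median length of 36223 bp against 17219 bp for all coding genes, and those with a shared peak 57350 bp; the part of gene length in the counts was not tested. Counted only within 1 kb of a gene end, shared peaks lay at 20 Ube genes (47.6%) and at 20.6% of all coding genes.

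The numbers describe lists called separately for each library, of 8236 peaks in wild-type replicate 1 and 10371 in replicate 2. Of these, 19.2% and 22.6% had a q-value above 0.05. Read depth is unknown, so a missing peak does not show that a site was unbound, and counts of genes move with the peak threshold. The labels do not say whether the replicates came from separate mice. Each fold enrichment below is the authors' own value for a peak, a ratio over the peak caller's background, with medians of 4.29 and 4.03 over all peaks of replicates 1 and 2. When peaks of both replicates had to reach a −log10 q of 5, shared peaks remained at 12 Ube genes. With a minimum of 10 for both, they remained at 9: Ube2cbp, Ube2d3, Ube2e2, Ube2e3, Ube2g1, Ube2q1, Ube2q2, Ube2v2 and Ube3c. The shares of all coding genes at these thresholds were 13.6% and 7.83%.

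The DNA at the starts of the 4 Ube genes with the highest-ranked shared peaks is shown first, because both replicates' peaks covered these 300-base windows completely. Each window runs from 250 bases before an annotated start to the 50 bases from it, 5′ to 3′ along the gene, from the RefSeq promoter table (GRCm38.p6), with CG dinucleotides in capitals. For genes with several annotated starts, the start nearest the replicate 1 summit was used. Ube2d1 and Ube2d2b, which share the Ube2d stem with Ube2d3 and had no peak in any list, are shown for contrast.
Ube2cbp, chr9:86464867-86465166, minus strand: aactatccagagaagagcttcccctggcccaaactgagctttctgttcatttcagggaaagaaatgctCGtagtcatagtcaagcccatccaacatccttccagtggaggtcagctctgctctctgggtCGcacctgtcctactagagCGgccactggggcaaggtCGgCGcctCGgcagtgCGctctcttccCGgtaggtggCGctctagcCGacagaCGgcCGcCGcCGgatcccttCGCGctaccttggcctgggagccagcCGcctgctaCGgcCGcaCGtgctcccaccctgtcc
Ube2e2, chr14:18893722-18894021, minus strand: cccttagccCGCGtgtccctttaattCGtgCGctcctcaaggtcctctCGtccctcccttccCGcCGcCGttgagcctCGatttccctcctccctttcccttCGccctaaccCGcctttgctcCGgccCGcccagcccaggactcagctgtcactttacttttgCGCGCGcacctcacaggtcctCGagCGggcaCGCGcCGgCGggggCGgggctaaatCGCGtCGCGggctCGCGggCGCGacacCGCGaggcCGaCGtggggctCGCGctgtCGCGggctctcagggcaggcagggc
Ube2q2, chr9:55149119-55149418, plus strand: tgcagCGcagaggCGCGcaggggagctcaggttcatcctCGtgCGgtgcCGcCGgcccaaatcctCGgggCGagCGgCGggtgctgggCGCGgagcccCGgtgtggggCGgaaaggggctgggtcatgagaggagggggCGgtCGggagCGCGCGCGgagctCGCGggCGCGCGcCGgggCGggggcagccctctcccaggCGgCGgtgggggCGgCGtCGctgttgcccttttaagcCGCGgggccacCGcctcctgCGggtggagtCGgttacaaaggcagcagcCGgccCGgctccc
Ube2d3, chr3:135438876-135439175, plus strand: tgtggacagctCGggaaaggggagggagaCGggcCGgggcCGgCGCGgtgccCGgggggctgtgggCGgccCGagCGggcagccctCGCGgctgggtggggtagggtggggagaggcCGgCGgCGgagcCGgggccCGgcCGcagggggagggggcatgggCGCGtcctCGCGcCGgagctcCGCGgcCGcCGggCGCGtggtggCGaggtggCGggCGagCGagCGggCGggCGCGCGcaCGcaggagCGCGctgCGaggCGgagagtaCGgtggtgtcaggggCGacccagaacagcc
Ube2d1, chr10:71285213-71285512, minus strand: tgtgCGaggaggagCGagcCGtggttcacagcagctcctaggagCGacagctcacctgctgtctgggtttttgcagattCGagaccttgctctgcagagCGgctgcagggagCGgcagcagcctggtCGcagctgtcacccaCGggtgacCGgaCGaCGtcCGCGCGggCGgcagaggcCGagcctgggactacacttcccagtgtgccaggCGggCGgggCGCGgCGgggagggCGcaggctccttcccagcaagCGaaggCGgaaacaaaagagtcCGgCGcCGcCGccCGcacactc
Ube2d2b, chr5:107829912-107830211, plus strand: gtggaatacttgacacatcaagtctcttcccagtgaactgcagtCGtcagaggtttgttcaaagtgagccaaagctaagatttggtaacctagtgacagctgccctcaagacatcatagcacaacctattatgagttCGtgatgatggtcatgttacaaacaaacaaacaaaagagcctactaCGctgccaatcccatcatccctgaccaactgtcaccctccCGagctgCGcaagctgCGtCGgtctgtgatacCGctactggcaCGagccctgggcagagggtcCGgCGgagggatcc
The windows of Ube2cbp, Ube2e2, Ube2q2 and Ube2d3 held 20, 39, 40 and 45 CG dinucleotides, and those of Ube2d1 and Ube2d2b held 30 and 11. The Ube2cbp window thus had fewer CG than that of Ube2d1, which had no peak. The Ube2d3 window was picked by its peak among several annotated starts, and the window at its first listed start held 29. The GC box GGGCGG, counted on both strands, occurred 2 times at Ube2e2, 4 times at Ube2q2, 2 times at Ube2d3 and 3 times at Ube2d1, and not at Ube2cbp or Ube2d2b.

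**Figure D1:**
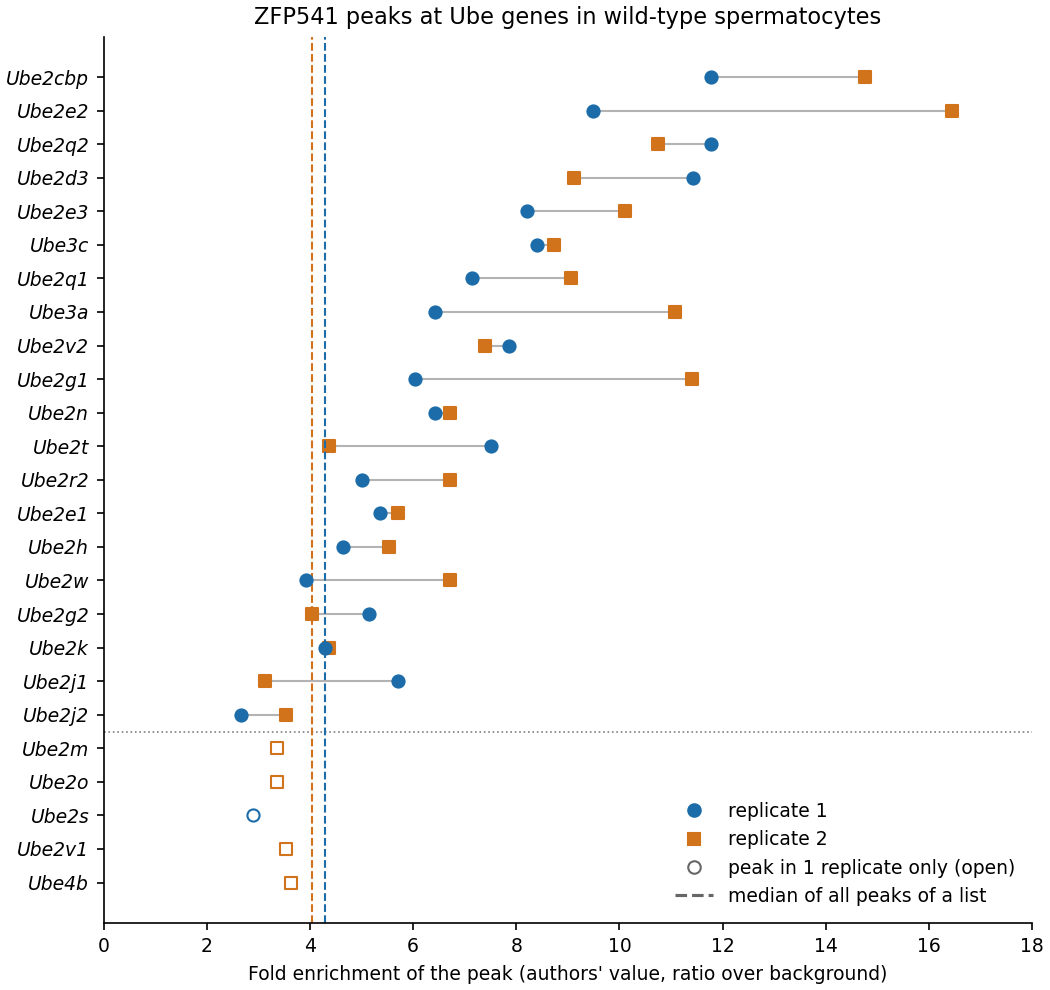
Fold enrichment (x axis, the authors' ratio over background) of the shared peaks of 20 Ube genes in wild-type replicate 1 (circles) and replicate 2 (squares), ordered by mean rank, with open symbols for the 5 genes with a peak in 1 replicate only. Folds of shared peaks ran from 2.66 to 11.8 in replicate 1 and from 3.12 to 16.4 in replicate 2, and the open symbols lie below both list medians (dashed lines).

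Folds of the 21 shared peaks had medians of 6.43 in replicate 1 and 6.71 in replicate 2. All shared peaks in the genome had medians of 5.0 and 5.74. The 2 sets are not alike, because each Ube gene gave only its best-ranked pair and the genome set holds every shared peak. Of the 21 genes, 16 (76.2%) were in the upper 50% of their list by fold in both replicates, against 67.7% of the 5176 coding genes with a shared peak. In the top 10% of both lists were 3 (14.3%, against 12.6%), namely Ube2cbp, Ube2e2 and Ube2q2. The fold was higher in replicate 2 at 15 of the 21 genes (71.4%) and at 3145 of all 5325 shared regions (59.1%). The ratio of replicate 2 to replicate 1 ran from 0.546 at Ube2j1 to 1.89 at Ube2g1, with a median of 1.19, so the order of the genes differed between the libraries. Positions below are mm10 and span the joined peaks of both replicates.

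Broad-range E2 enzymes serve many ligases, and here the UBE2D genes differed among themselves in whether they had a shared peak. The UBE2D enzymes are closely related and work with a large share of RING ligases. Of their genes, Ube2d3 had a shared peak (chromosome 3, 135438026 to 135439793) with folds of 11.4 and 9.13, at −log10 q of 23.7 and 20.3. Ube2d1, Ube2d2a, Ube2d2b and the X-linked Ube2dnl1 and Ube2dnl2 had no peak in any list; on the X chromosome, which also holds Ube2a, 3.22% of coding genes had a shared peak. The UBE2E enzymes carry an extended N-terminal tail before the catalytic core. All 3 of their genes had shared peaks, against 23.8% of all coding genes. Ube2e2 (chromosome 14, 18893025 to 18894550) had 9.48 in replicate 1 and 16.4 in replicate 2, at −log10 q of 21.8 and 44.3; 16.4 was the highest fold of any Ube gene in either list. Ube2e3 (chromosome 2, 78868347 to 78870138) had 8.21 and 10.1, at −log10 q of 13.4 and 21.6. Ube2e1 (chromosome 14, 18330430 to 18332058) had lower folds, 5.36 and 5.71, at −log10 q of 5.61 and 6.96. Ube2w, whose product attaches ubiquitin to protein N-termini, had 3.93 and 6.71, at −log10 q of 2.38 and 9.76, in a region of 365 bp (chromosome 1, 16619253 to 16619617), the narrowest of the 21. Ube2l3, an E2 for ligases of the HECT and RBR types, had no peak in its gene or within 1 kb.

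Among the E2 genes of chromatin ubiquitination and DNA repair, 3 of 6 had shared peaks, against 23.8% of all coding genes and 50% of all Ube genes. UBE2N builds the signalling chains that RNF8 uses at damaged chromatin, together with the inactive E2 variants UBE2V1 or UBE2V2. Ube2n (chromosome 10, 95514487 to 95515755) had folds of 6.43 and 6.71, at −log10 q of 8.36 and 9.76. Ube2v2 (chromosome 16, 15593936 to 15594555) had 7.86 and 7.38, at −log10 q of 12.4 and 11.7, so the replicates were close at both genes. Ube2v1 had a replicate 2 peak of 3.54 and none in replicate 1. Ube2t, the E2 of the Fanconi anaemia pathway, had 7.50 and 4.37, at −log10 q of 11.3 and 4.17 (chromosome 1, 134962111 to 134963085). Ube2a and Ube2b encode the mouse counterparts of yeast RAD6, which act on histone H2B and on PCNA, and neither had a peak in any list.

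All 4 genes assigned to degradation at the endoplasmic reticulum had shared peaks (against 23.8% of all coding genes), with folds from low to high. Ube2g1 (chromosome 11, 72606735 to 72608606) had 6.04 in replicate 1 and 11.4 in replicate 2, at −log10 q of 10.4 and 25.04. Its relative Ube2g2 (chromosome 10, 77622188 to 77622775) had 5.15 and 4.03, at −log10 q of 6.55 and 2.86. Ube2j1 and Ube2j2 encode E2 enzymes anchored in the endoplasmic reticulum membrane. Ube2j1 (chromosome 4, 33030764 to 33032305) had 5.71 and 3.12, at −log10 q of 6.5 and 2.75, and its replicate 2 peak was below the median fold of that list. Ube2j2 (chromosome 4, 155943872 to 155944291) had 2.66 and 3.54, and its replicate 1 peak, with a −log10 q of 0.536, did not reach a q-value of 0.05. Without peaks above that q-value, 3 of the 4 genes had a shared peak (21.4% of all coding genes). When both peaks had to reach a −log10 q of 5, Ube2g1 alone kept one (13.6% of all coding genes).

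Of the 3 cell cycle genes, 1 had a shared peak, against 23.8% of all coding genes. UBE2C starts and UBE2S extends ubiquitin chains for the anaphase-promoting complex. Ube2c had no peak, and Ube2s had a replicate 1 peak of 2.90 only. Ube2r2, a relative of Cdc34 that works with cullin ligases, had a shared peak (chromosome 4, 41135025 to 41136703) with 5.0 and 6.71, at −log10 q of 4.75 and 9.76, lost when peaks had to overlap by at least 50% of each other. Ube2m, an E2 for NEDD8, had a replicate 2 peak of 3.36 with its summit 624 bp from the gene end farther from its start, close to an end of Chmp2a. Ube2f, the other NEDD8 enzyme, and Ube2l6, the E2 for ISG15, had no peak.

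Of the 8 remaining E2 genes, 4 had shared peaks, against 23.8% of all coding genes and 50% of all Ube genes. Ube2q1 and Ube2q2 encode related E2 enzymes with a long N-terminal region. Ube2q2 (chromosome 9, 55148509 to 55150412) had 11.8 and 10.7, at −log10 q of 24.9 and 22.7, and its region, at 1904 bp, was the widest of the 21. Ube2q1 (chromosome 3, 89772669 to 89774424) had 7.14 and 9.06, at −log10 q of 10.3 and 17, and was lost when peaks had to overlap by at least 50% of each other. Ube2h, the E2 of the CTLH ligase, had 4.64 and 5.53, at −log10 q of 3.92 and 7.01 (chromosome 6, 30303933 to 30304599). Ube2k, an E2 that builds degradation chains by itself, had 4.29 and 4.36, at −log10 q of 3.13 and 3.62 (chromosome 5, 65537192 to 65538215). The Ube2k region also lay at an end of Smim14, the only shared peak among the 21 within 1 kb of an end of another protein-coding gene (4.76%, against 24.1% of all coding genes with a shared peak), so which of the pair it belongs to cannot be told. Ube2o had a replicate 2 peak of 3.36, and Ube2u, Ube2ql1 and Ube2z, whose product takes ubiquitin from the E1 UBA6, had none.

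Of the 6 ligase genes under the same stem, 3 had shared peaks, against 23.8% of all coding genes and 50% of all Ube genes. Ube2cbp (Ube3d), named for binding the E2 UBE2C, had 11.8 and 14.8, at −log10 q of 24.9 and 37.6 (chromosome 9, 86464174 to 86465382), the best mean rank of all Ube genes. Its replicate 1 fold and −log10 q, 24.9, were the same as those of Ube2q2. The HECT ligase gene Ube3a, known for its imprinting in neurons, had 6.43 and 11.1, at −log10 q of 8.36 and 23.8 (chromosome 7, 59228318 to 59230042). Ube3c, which encodes a ligase that works at the proteasome, had 8.40 and 8.73, at −log10 q of 17.7 and 21.6 (chromosome 5, 29568839 to 29570197), the closest pair of folds among the 9 genes that passed a −log10 q of 10. Ube4b, a U-box chain-extending enzyme, had a replicate 2 peak of 3.62 only, and Ube3b and Ube4a had none.

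**Figure D2:**
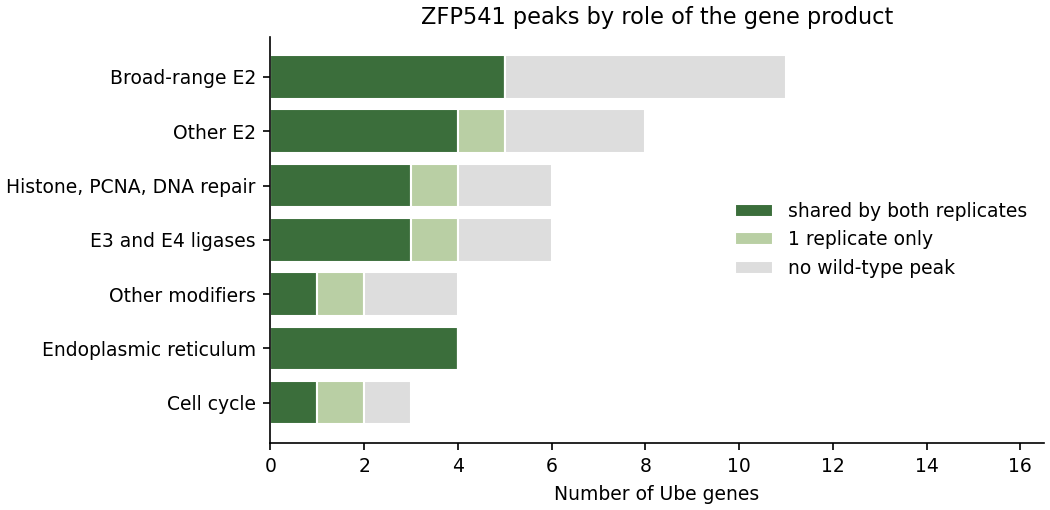
Number of Ube genes (x axis) with a peak shared by both wild-type replicates (dark), with a peak in 1 replicate only (light) and with none (grey), by role of the product (y axis). All 4 genes of the endoplasmic reticulum group, 5 of 11 broad-range E2 genes and 1 of 3 cell cycle genes had shared peaks. The share of all coding genes was 23.8%. When both peaks had to reach a −log10 q of 5, Ube2g1 alone of the endoplasmic reticulum group kept one.

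Where a start was known, every shared peak reached within 1 kb of it. Annotated starts were available in the promoter table for 35 of the 42 Ube genes, and those without one included Ube2d2a, Ube2e3, Ube2g2, Ube2o, Ube2v2 and Ube2w. Within 1 kb of a start, 16 of the 35 had a shared peak (45.7%), against 21.6% of 17491 coding genes with a start. The windows at the first listed starts of these 35 genes held a median of 27 CG dinucleotides, against 13 over all coding genes. The part of CG content in these counts was not tested. Both summits, the highest points of the peaks, were within 1 kb of the start at 15 of the 16. The exception was Ube2g1, with summits 838 and 1070 bp downstream. Both summits lay downstream of the start at 8 genes and upstream at 4. These places relative to the start were not counted over all coding genes with a shared peak. They are therefore not given as a trait of Ube genes. They were at 617 and 525 bp downstream in Ube3a and at 622 and 608 bp in Ube2e1, whereas Ube2q1 had them at -350 and -331 bp and Ube2n at -274 and -307 bp. At Ube3c they were at -11 and -46 bp. Summits of the replicates differed by 8 bp at Ube2cbp and by 640 bp at Ube2k, with a median of 92 bp over the 21 genes and 90 bp over all shared regions. The regions of Ube genes had a median width of 1359 bp, against 1061 bp for all shared regions. For summit differences and widths too, each Ube gene gave only its best-ranked pair, so the sets are not alike.

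**Figure D3:**
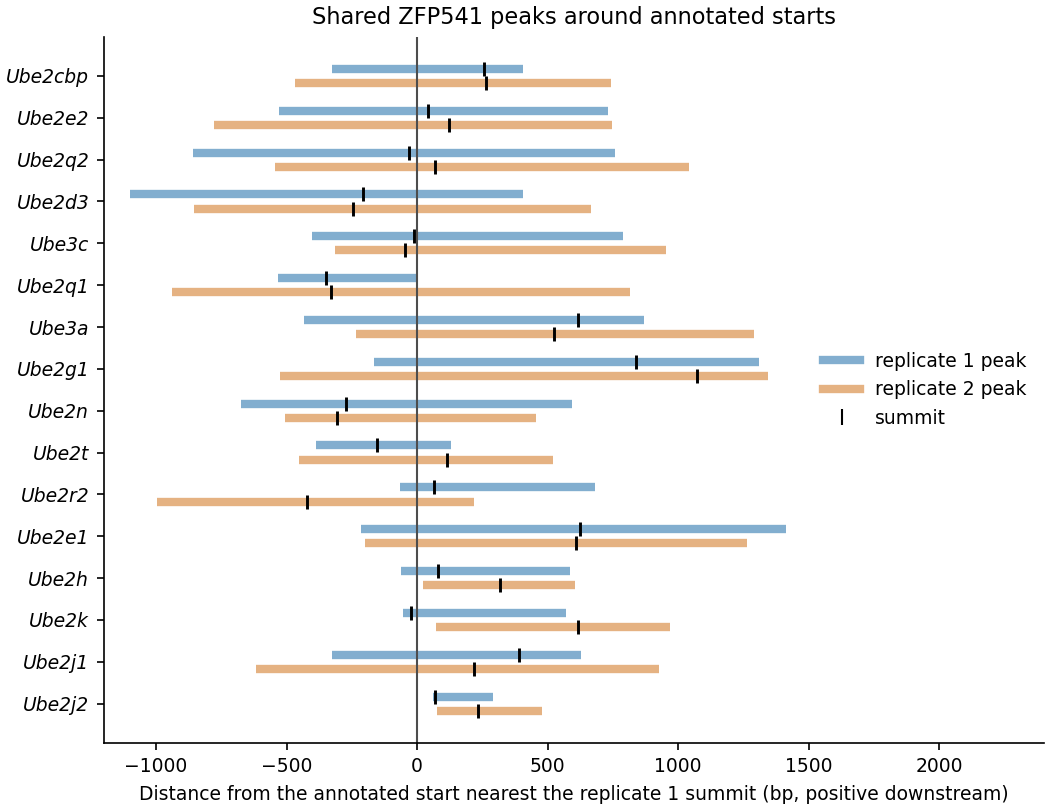
Extent of the shared peaks in wild-type replicate 1 (upper bars) and replicate 2 (lower bars) along the distance in bp from the annotated start nearest the replicate 1 summit (x axis, positive downstream), for the 16 Ube genes with an annotated start and a shared peak, with summits as ticks. Summits lie between -350 and 838 bp in replicate 1 and between -421 and 1070 bp in replicate 2.

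In all, 29 replicate 1 peaks and 30 replicate 2 peaks reached the Ube genes, and 23 (79.3%) and 22 (73.3%) of these overlapped a peak of the other replicate. Over all coding genes, 76.8% of replicate 1 peaks and 58.5% of replicate 2 peaks in a gene or within 1 kb did so. Of the 59 peaks, 45 (76.3%) had a summit within 1 kb of a gene end, against 64.4% over all coding genes. Some genes with a shared peak had other peaks found in 1 replicate only, with folds from 2.69 to 4.03 and none above the median of its list. At Ube2e1, a replicate 1 peak of 2.86 had its summit 2294 bp and a replicate 2 peak of 3.25 its summit 4810 bp downstream of the start. At Ube2t, a replicate 2 peak of 4.03 had its summit 983 bp upstream. Non-coding genes ended within 1 kb of the shared region at 7 of the 21 genes (33.3%, against 16.2% of all coding genes with a shared peak), such as 4930539J05Rik at Ube2d3 and 4632404H12Rik at Ube2q1.

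Ube genes with a shared peak at their start had more CG dinucleotides there. For this comparison the first listed start of each gene was used, which for Ube2d3 is another window than the one shown. The 16 windows with a shared peak held 20 to 53 CG, with a median of 34.5 and a highest value at Ube3c, followed by Ube2j1 with 52. The 19 windows of Ube genes without a shared peak held 1 to 33, with a median of 22; the lowest were the X-linked Ube2dnl2 with 1 and Ube2dnl1 with 4. The groups overlapped between 20 and 33. Over all coding genes the medians were 28 with and 8 without a shared peak, so the difference is general and Ube genes without a peak lay above their counterparts. Among windows with 20 to 29 CG, 7 of 15 Ube genes had a shared peak, against 33.1% of all such genes. With 30 to 39 CG these were 5 of 9 and 54.8%, and with 40 or more 4 of 4 and 82.9%. None of the 7 Ube genes with fewer than 20 had one, against 3.19% of all genes with 0 to 9 CG and 17.5% with 10 to 19. Read counts were not at hand, so whether CG-rich DNA was recovered more readily was not tested.

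**Figure D4:**
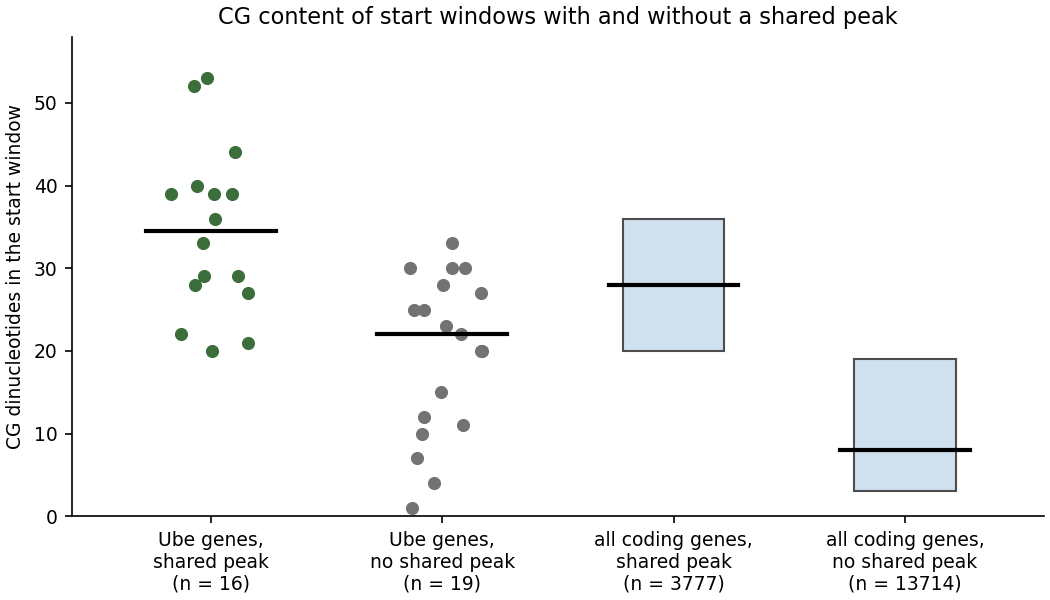
Number of CG dinucleotides in the 300-base window at the first listed start (y axis) of Ube genes with and without a shared ZFP541 peak within 1 kb of a start (points, 1 per gene), and of all coding genes in these classes (boxes, lower to upper quartile). Black lines are medians, at 34.5 and 22 for Ube genes and 28 and 8 for all coding genes.

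Motifs were searched by their letters on both strands of the same windows. GGGCGG, the GC box, was in 13 of the 16 windows with a shared peak (81.2%) and in 12 of the 19 without (63.2%). All coding genes had it in 75.3% and 38.3% of such windows, and in 46.3% overall. TATAAA was in none of the 16 and in 3 of the 19, against 13.3% of all windows, and CCAAT in 3 and 8, against 39% of all. TGACG was in 5 and 4 (23.8% of all), and the longer TGACGTCA, which holds it, in 1 and 1 (2.34%). CACGTG was in 2 and 2 (7.90%), CAACTG in 2 and 3 (12.4%), CCGGAAGT in 1 and 3 (5.29%), the NRF1 motif in 2 and 3 (6.6%), and a palindrome with a CGCG core in none (0.715%). Except for GGGCGG, the shares above are of all windows, with or without a peak. In coding genes with and without a shared peak, they were 5.24% and 15.6% for TATAAA and 36.2% and 39.8% for CCAAT. They were 34.1% and 21.0% for TGACG, 12.4% and 6.67% for CACGTG, and 7.31% and 13.8% for CAACTG. CCGGAAGT had 7.04% and 4.81%, and the NRF1 motif 13.2% and 4.79%. All motif counts are matches of letters in 300 bases and not binding sites.

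The other genes of the conjugation relays were listed by their roles, 42 in all, and 19 of them (45.2%) had a shared peak in the gene or within 1 kb, against the 23.8% of all coding genes. Of 11 genes of E1 enzymes and their partners, 4 had one. Sae1 and Uba2, which encode the 2 subunits of the SUMO E1, had folds of 5.0 and 6.18 and of 3.57 and 4.03. Uba6, an alternative ubiquitin E1, had 5.0 and 3.69, and Mocs3, which encodes an E1-like enzyme, had 5.0 and 6.81 in a region that also lay at an end of Dpm1. The main ubiquitin E1 gene Uba1, its Y-linked copy Uba1y, Uba3, Uba7, Nae1 and Atg7 had no peak.

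Of 8 E2-like genes with other symbols, 5 had a shared peak, against 23.8% of all coding genes. Birc6, which encodes a giant E2 that also acts as a ligase, differed most between replicates, with 3.6 and 11.4. Cdc34, the cullin partner, had 6.07 and 4.24. The inactive variant Aktip had 5.69 and 5.56, in a region inside the gene where only the replicate 1 peak reached within 1 kb of an end, and the autophagy E2 genes Atg3 and Atg10 had 4.01 and 4.03 and 4.29 and 5.06. The Atg3 region also lay at an end of Slc35a5. Tsg101, an inactive E2 variant of the sorting machinery, had peaks in both lists, of 5.36 and 2.69, that did not overlap, and Ufc1 and Uevld had none.

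The modifiers themselves differed by kind. Sumo3 had the highest fold of the list in replicate 1, 14.3, with 9.01 in replicate 2. Sumo2, which encodes a close relative of the same modifier, had 6.77 and 9.05. Nedd8, the modifier of cullins, had 3.70 and 3.44 in a region that also lay at an end of Gmpr2. The polyubiquitin gene Ubb had a replicate 1 peak of 3.21 only. Rps27a, Ufm1 and Isg15 had none.

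Among 13 ligases that work with these E2 enzymes on chromatin or in meiosis, 5 had shared peaks, against 23.8% of all coding genes. Rnf168 and Rnf8, which act in turn on chromatin at DNA breaks, had 12.3 and 12.2 and 9.29 and 8.74. Rnf2, the ligase of a Polycomb repressive complex, had 7.36 and 11.4. Rad18 and Shprh, which act on PCNA, had 4.01 and 5.04 and 5.36 and 6.04. Rad18, the ligase partner of UBE2A and UBE2B, thus had a shared peak where the genes of these E2 enzymes had none. Rnf20 and Rnf40, which act with the same E2 enzymes on histone H2B, had no peak. Ubr2 had peaks of 3.93 and 3.18 that did not overlap, and Hltf had one of 5.37 in replicate 2 only. Rnf212, Ccnb1ip1, Pias1 and Fancl had none.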

How the data were processed

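The deposited lists give peaks of 1 ChIP library each. The submitters' processing notes name mm10 and MACS2 2.2.6, with Bowtie2 2.3.5 among the other tools; the sources used here give no settings, controls or thresholds. For each peak the authors deposited a fold enrichment (a ratio), −log10 p, −log10 q, the summit and a score, which equals the −log10 q times 10 without decimals and was not used further. Samples were grouped by title.

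Gene positions came from the RefSeq table of GRCm38.p6 without 108 coding entries before 3 Mb, which carry scaffold coordinates. Starts and sequences came from the RefSeq promoter table. The genes, lists and alternatives were chosen with earlier results of these data known. Folds are given for the named Ube genes with a peak and ranks only as counts, and of the planned 8 promoters the 4 best ranked are shown. Some genes are counted but not reported here by name. Ube2d1 and Ube2d2b were matched to Ube2d3 by symbol stem; proteins were not compared. Cdc34b is a synonym of Ube2r2 in the table and was not counted again. The overlap counting was checked on simulated peaks. Python 3.11.15, numpy 2.4.6, pandas 2.3.3 and matplotlib 3.10.9 were used.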

Additional observations from a re-analysis of the deposited data

How the results depend on the processing

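Counts were repeated with stricter peaks, other windows, a reciprocal overlap of 50%, summits in place of peaks, knockout regions kept and each wild-type replicate alone, and they moved by more than 1.5 times only with the stricter peaks. At a −log10 q of at least 5, shared peaks lay at 12 Ube genes, at 12 within 1 kb of a gene end and at 10 of 35 at a start, and at 8 of the 42 other conjugation genes; the shares of all coding genes were 13.6%, 11.6%, 12.1% and 13.6%. With a minimum of 10 the counts were 9, 9, 7 and 5, with shares of all coding genes of 7.83%, 6.63%, 6.80% and 7.83%. At a q-value of at most 0.05, 19 Ube genes stayed (21.4% of all coding genes), and Ube2j2 was among those lost. With 1 replicate alone, the Ube genes with a peak numbered 22 to 25, those at a gene end 21 to 23, those at a start 17 to 18 and the other conjugation genes 22 to 23. The matching shares of all coding genes were 27.8% to 32.6%, 23.7% to 27.8%, 24.5% to 28.6% and 27.8% to 32.6%. Knockout peaks at Ube genes were recounted at the 3 q thresholds and with the other windows, and there were none. Of these settings, only the 2 kb window could have added any, because the others can only remove peaks. Knockout peaks lay at 0.0873% to 0.234% of all coding genes in these settings. Median folds were recomputed only at a q-value of at most 0.05, with the 2 kb window and with summits near a gene end, and stayed at 6.43 and 6.71. No paired analysis was possible because the wild-type and knockout lists share only 1 replicate number and no test was made. Read depth is unknown, which limits what a missing peak can show.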

Other observations

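For Ube genes without a peak, the nearest wild-type peaks lay at very different distances from the gene. Those closest to the 1 kb limit were a replicate 2 peak 1651 bp from Ube2ql1, with a fold of 3.36, and peaks at Ydjc, 3218 and 2481 bp from Ube2l3, with folds of 7.86 and 3.69 in replicates 1 and 2. Ube2d1 had peaks at Tfam, which encodes the mitochondrial transcription factor, at 16936 and 16834 bp, with folds of 2.62 and 2.34. The RAD6 counterpart Ube2b had its nearest replicate 2 peak 17121 bp away at Cdkn2aipnl, with a fold of 3.02, and its nearest replicate 1 peak 94639 bp away at Ppp2ca, with 5.36. On the X chromosome, where 3.22% of 963 coding genes had a shared peak in the gene or within 1 kb, the nearest peaks to Ube2a were at Lonrf3, 544020 and 544099 bp away, with folds of 9.64 and 9.06. Of the X-linked pair, Ube2dnl1 had its nearest peak 2303913 bp away and Ube2dnl2 2306483 bp away, both in replicate 1 at Zfp711.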
